A study of Mus musculus with 78 samples.

Results

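The comparison described here set soleus muscle of 20-month mice against soleus muscle of 6-month mice in the libraries whose titles carry the letter F, read here as female. It was made of the 6 libraries titled 20 months, F and the 4 libraries titled 6 months, F, which together are 10 of the 78 labelled libraries of the series. All 10 came from C57Bl/6 mice on a standard diet with no compound, and all carried the batch label 1. The study followed the soleus, a small postural calf muscle rich in slow fibres, across ages in both sexes. The other groups include mice of 12 and 28 months, M libraries, another batch and 28-month M mice given CaAKG. All of them entered the fit and share its estimate of spread. Of these groups, only the 12-month F libraries and the M libraries of 20 and 6 months are also compared below. The 20-month mice came from the Jackson laboratory in the USA, and the 6-month mice from Invivos in Singapore, and both were housed for 2 months before the work began. Supplier and age therefore changed together in this comparison, and their parts cannot be told apart. The labels do not state whether the housing months are included in the ages. RNA was read as pairs of 150 nucleotides, and the deposited values are expected counts per gene, which are counts estimated by a model that divides reads fitting several transcripts.

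Total counts, in units of 1000000, ran between 34.4 and 60.0 in the 20-month libraries and between 19.5 and 77.6 in the 6-month libraries. The sex check touched 1 of the 10. Six-month replicate 3 held 0 CPM (counts per 1000000 of the library's scaled total) of Xist, the RNA of the inactive X chromosome, and 51.6 CPM of the Y-linked gene Ddx3y, so its transcripts go against its F label. In the other 9 libraries Ddx3y was at 0, and Xist lay between 135 and 179 CPM in the 20-month libraries and at 64.9, 57.9 and 61.0 CPM in the other 6-month libraries. Counts below are therefore also given without that library. Each of the 10 skeletal fibre markers and each of the 7 slow soleus fibre markers had counts in at least 1 of the 10 libraries. All 14 keratinocyte markers did too, so detection alone does not check the tissue label. Skeletal fibre markers summed to 68860 to 83022 CPM at 20 months and 81315 to 91600 CPM at 6 months. Keratinocyte markers summed to 3.8 to 5.53 CPM and 4.05 to 85.9 CPM. Most of the results that follow ran along transcript length, so counts by gene group are also given after a per-library correction for length and GC content, called the length and GC offsets below.

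A slow muscle fibre spends its life contracting, and it is built for that from a few classes of genes. Respiratory chain proteins in the mitochondria make its ATP, cytosolic and mitochondrial ribosomes make those proteins, and giant proteins such as titin and nebulin hold the contractile lattice together. Around each fibre lie a basement membrane, capillaries and the nerve ending, and in ageing muscle of rodents the nerve contacts, the fibre types and the mitochondria are the parts most often studied.

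Across 18218 genes tested with edgeR's quasi-likelihood test, 3311 genes rose at 20 months (18.2% of those tested) and 3251 fell (17.8%) at a Benjamini-Hochberg adjusted p under 0.05. Without 6-month replicate 3, 2589 of 18724 genes rose (13.8%) and 2659 fell (14.2%), and 2520 of those rises and 2615 of those falls were also called with it. In 6349 genes (34.9%) the CPM of the groups did not overlap, with all 6 of the 20-month libraries above in 18.4% of genes and below in 16.4%. List counts below are to be read beside the 18.2% rising and 17.8% falling over all genes. Most of the nuclear genes listed for ribosomal proteins, for the respiratory chain and for the proteasome fell. Most of those listed as endothelial markers, for the dystrophin complex and for very large chromatin and ubiquitin proteins rose.

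The direction of change followed the length of the transcripts. Genes whose transcripts were at most 1000 bases long had a median log2 fold change of -0.73, with 1.81% rising and 39.2% falling, whereas genes with transcripts over 6000 bases had a median of 0.91, with 67.8% rising and 1.07% falling. Rising genes had a median length of 4566 bases and falling genes of 1447 bases, against 2495 bases over all genes tested. Across 17766 genes, Spearman's rho between length and log2 fold change was 0.56, and 0.52 without 6-month replicate 3. Genes share their libraries, so this is a description.

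The trend was also read library by library. In each library, each gene's deviation from its mean over all libraries was ranked against its length, and rho lay between 0.616 and 0.68 in the 20-month libraries and between -0.666 and -0.357 in the 6-month libraries. These groups did not overlap (exact permutation test, two-sided, p = 0.0095, the smallest that 6 against 4 libraries can give, adjusted p = 0.05 over 21 library properties). Six-month replicate 3 was among the lower values, and the p without it was 0.024 (exact permutation test), again the smallest possible, with adjusted p = 0.12. RNA quality scores were not used here, and whether library making, RNA integrity, supplier or age moved with length was not tested. With the offsets, which remove the trend in each library, rho was -0.01, 1285 genes rose (7.05%) and 2170 fell (11.9%), and leaving out 6-month replicate 3 as well, 835 rose (4.46%) and 1511 fell (8.07%). Of the calls with all libraries, 1053 rises and 1518 falls were also called without the correction. An age effect that itself follows length would be removed as well.

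**Figure D1:**
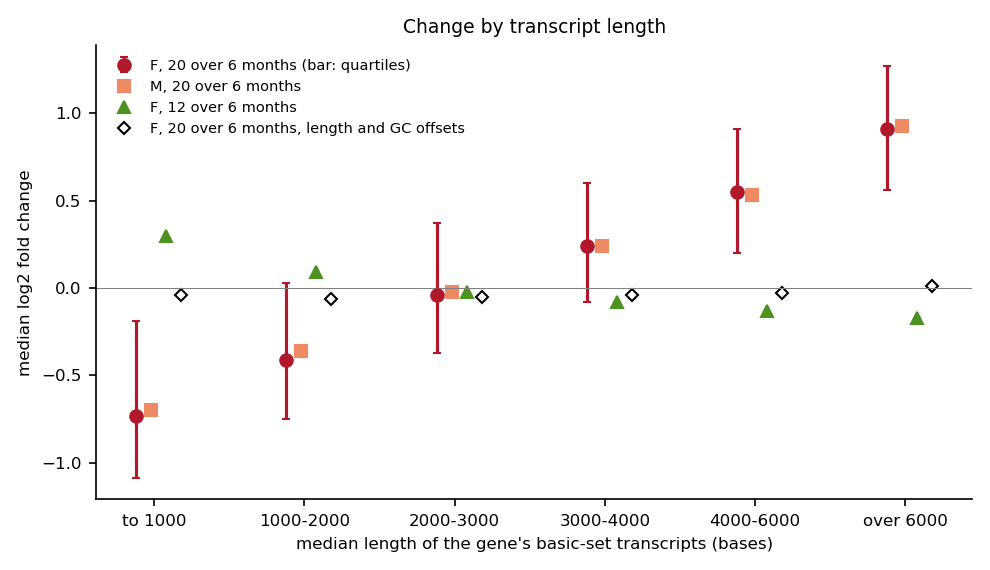
Median log2 fold change (y axis) of genes in 6 bins of transcript length in bases (x axis). Red circles give F libraries at 20 over 6 months with quartiles as bars, orange squares M libraries, green triangles F libraries at 12 over 6 months, and open diamonds the F comparison with length and GC offsets. The F medians climb from -0.73 in the shortest bin to 0.91 in the longest, and with offsets they stay between -0.06 and 0.01.

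Genes for ribosomal proteins gave the most uniform fall. Of 58 cytosolic ribosomal protein genes tested, 57 fell and 0 rose, with a median log2 fold change of -0.98 against 0.00 over all genes. The remaining member, Rpl3, had a log2 fold change of -0.50 ± 0.27 (SE) with adjusted p = 0.14. Rps2, a protein of the small subunit near the mRNA entry, measured 414 to 542 CPM with a median of 496 in the 20-month libraries, against 890, 1349, 1800 and 1291 CPM in the 6-month libraries. No 20-month library came near a 6-month one, and 6-month replicate 3 was the highest. Its log2 fold change was -1.45 ± 0.17 (SE) with adjusted p = 1.2e-09, and -1.27 without that library. Rps14 (-1.54), Rps9 (-1.16) and Rpl27 (-1.08) also fell. Ribosomal protein genes have many processed copies in the mouse genome, and reads divided between them make single values less certain.

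The mitochondrion's own ribosome fell alongside. Among 46 nuclear genes for mitochondrial ribosomal proteins, 45 fell and 0 rose, with a median of -0.93. Mrps2 was the exception, with 18.2 CPM as the 20-month median and 18.9, 18.2, 19.3 and 18.8 CPM at 6 months (log2 fold change -0.01, adjusted p = 0.98). Mrps24, among the 12 largest falls of all named genes, had 24.9 to 37.9 CPM (median 30.1) at 20 months, against 62.9, 96.2, 142 and 79.9 CPM at 6 months. The groups lay apart, with a log2 fold change of -1.64 ± 0.20 (SE) with adjusted p = 2.3e-09. Mrps28 and Mrps26 fell by 1.2 and 1.18 on the log2 scale. Their products sit in the small mitochondrial subunit, which reads the mRNAs of the mitochondrial genome.

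Of 76 nuclear genes for respiratory chain subunits, 71 fell and 0 rose, with a median of -0.95. Ndufb6, an accessory subunit of complex I, measured 60.5 to 71.8 CPM (median 66.1) at 20 months, against 129, 161, 187 and 152 CPM at 6 months, a log2 fold change of -1.24 ± 0.17 (SE) with adjusted p = 1.7e-08. Ndufa13 (-1.31) and Ndufs7 (-1.17) of complex I fell as well, and Uqcrq of complex III had the lowest value of the list at -1.52. The 5 members that did not pass were Ndufs1 (0.18), Sdha (0.06), Uqcrc2 (-0.26), Atp5a1 (-0.27) and Atp5k (-0.71). Ndufs1 and Sdha code for large catalytic subunits with long transcripts, of 2626 and 2900 bases against a list median of 746 bases.

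Without 6-month replicate 3, 57 of 58, 45 of 46 and 69 of 76 members of these lists fell. With the offsets, 32, 26 and 37 fell and 0 rose in each, with medians of -0.34, -0.36 and -0.32, all still below 0. Removing replicate 3 as well left 24, 22 and 24. In the plot of list means per library, the 20-month F libraries lay between -1.15 and -0.85 for cytosolic ribosomal proteins, where the 6-month F libraries lay between -0.40 and 0.28.

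**Figure D2:**
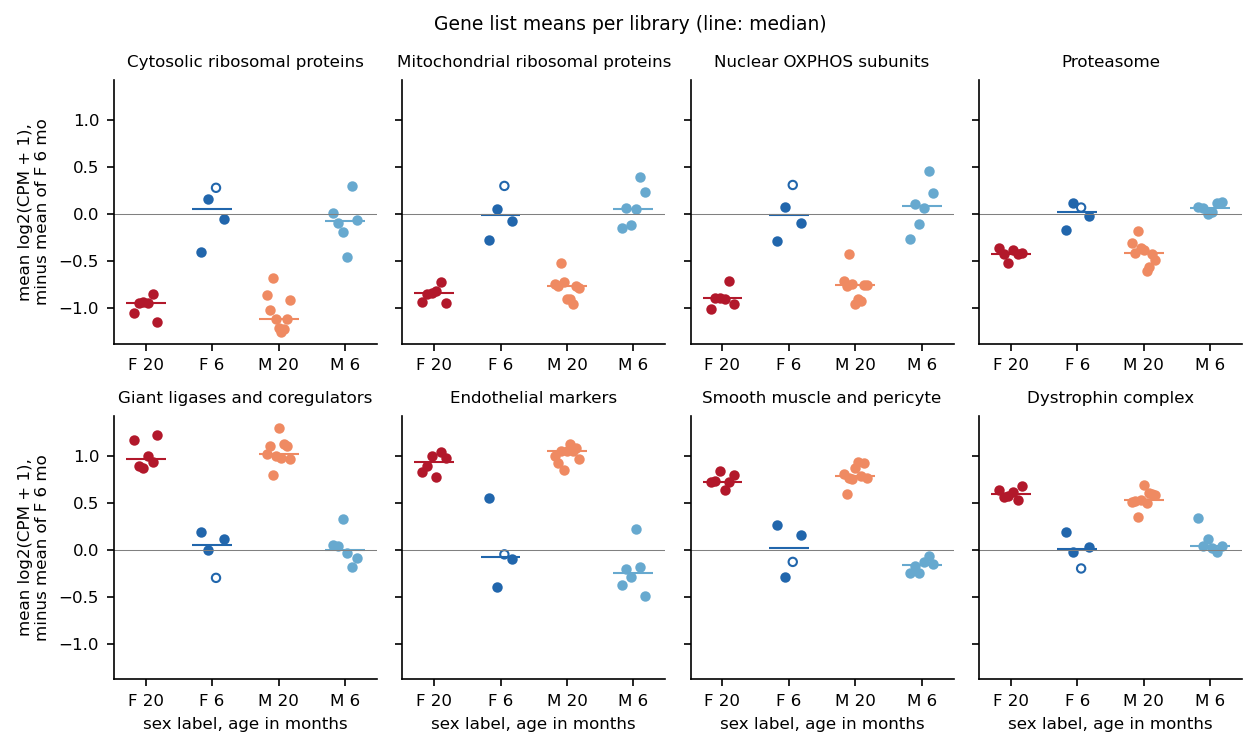
Mean of log2(CPM + 1) over the tested members of 8 gene lists in each library, minus the mean of the 6-month F libraries (y axis), for F and M libraries of 20 and 6 months (x axis), with the median as a line. The open circle is 6-month F replicate 3. For OXPHOS subunits the 20-month F libraries sit between -1.01 and -0.71 and the 6-month F libraries between -0.29 and 0.31, and for endothelial markers the 20-month F libraries sit between 0.77 and 1.04 and the 6-month F libraries between -0.40 and 0.55.

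Promoters of the falling groups shared a short sequence more often than promoters in general, which is why 3 of them are shown. RefSeq windows (GRCm38.p6) reach 250 bases before to 50 after the first listed start and were found for 12567 of the genes tested. CCGGAAG, the core recognised by ETS family factors, or its reverse complement CTTCCGG, was present in 15.9% of these windows. It was present in 25.8% of windows of falling genes, 14.7% of rising genes and 13.1% of genes that did not pass. By list, the share was 40.9% of 44 cytosolic ribosomal, 37.5% of 40 mitochondrial ribosomal, 37.9% of 29 proteasome and 22.6% of 62 respiratory chain promoters. In each of the first, second and last of these lists the member with the smallest p that held the motif is printed. The motif is in capitals, 5′ to 3′ on the gene's strand. Genes of a single chromosome were left out of this choice. Rps2 lies at chr17:24719813-24720112 on the plus strand, Mrps26 at chr2:130563507-130563806 on the plus strand and Ndufb6 at chr4:40279372-40279671 on the minus strand.
Rps2: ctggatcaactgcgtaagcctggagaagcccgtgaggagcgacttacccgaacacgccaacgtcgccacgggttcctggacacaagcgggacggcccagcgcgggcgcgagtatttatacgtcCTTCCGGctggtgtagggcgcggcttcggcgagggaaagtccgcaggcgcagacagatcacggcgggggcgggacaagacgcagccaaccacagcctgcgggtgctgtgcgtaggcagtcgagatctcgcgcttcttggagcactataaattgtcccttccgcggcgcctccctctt
Mrps26: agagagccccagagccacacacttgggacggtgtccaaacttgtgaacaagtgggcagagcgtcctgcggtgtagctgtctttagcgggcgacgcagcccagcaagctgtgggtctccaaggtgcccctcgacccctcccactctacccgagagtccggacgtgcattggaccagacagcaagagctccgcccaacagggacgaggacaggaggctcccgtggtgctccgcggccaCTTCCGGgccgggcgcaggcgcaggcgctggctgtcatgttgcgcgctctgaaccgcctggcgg
Ndufb6: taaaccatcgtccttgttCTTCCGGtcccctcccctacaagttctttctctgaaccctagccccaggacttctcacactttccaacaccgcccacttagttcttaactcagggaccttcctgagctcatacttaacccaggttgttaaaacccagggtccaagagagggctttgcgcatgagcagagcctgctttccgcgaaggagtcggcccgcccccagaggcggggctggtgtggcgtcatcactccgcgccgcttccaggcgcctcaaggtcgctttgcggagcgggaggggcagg
In all 3 the letters read CTTCCGG, so the match is on the strand opposite the gene, and it begins at position -127 in Rps2, -14 in Mrps26 and -232 in Ndufb6, counted from the annotated start. A match is a string of letters and not a measured site. AAGATGGC, the YY1 core, occurred in 17.5% of mitochondrial ribosomal and 12.9% of respiratory chain promoters, against 4.09% of all windows, and in 2.27% of cytosolic ribosomal promoters. It was present in 6.56% of windows of falling genes, 4.83% of rising genes and 3.04% of genes that did not pass. Motif shares were not compared at matched transcript length.

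Few mRNAs of the mitochondrial genome itself were called. Of its 13 mRNAs, 2 fell and 0 rose, and with the offsets 1 fell and 2 rose. mt-Nd3, a complex I subunit, averaged 89.8 ± 18.4 CPM (SD, n = 6) at 20 months, against 151, 260, 1261 and 274 CPM at 6 months. Its highest value, in 6-month replicate 3, was several times the others, and the gene had a log2 fold change of -2.44 ± 0.50 (SE) with adjusted p = 4.7e-05 that was -1.34 (adjusted p = 0.032) without that library. mt-Co2 fell by 1.01 on the log2 scale (adjusted p = 0.027), a call lost without any one of 20-month replicates 1 and 5 and 6-month replicates 2 and 4. The ribosomal RNA mt-Rnr1 fell by 1.89 and is counted separately. Nuclear copies of mitochondrial sequence can take a part of such reads, which makes these values less certain. Mitochondrial transcripts took 15.0% to 17.1% of counts in the 20-month libraries and 16% to 20.2% in the 6-month libraries (exact permutation test, p = 0.11).

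Metabolic enzymes were split. Of 24 genes for the citric acid cycle and pyruvate entry, 11 fell and 1 rose, of 26 for fatty acid use 9 fell and 3 rose, and of 25 for glycolysis and glycogen 12 fell and 4 rose. Mpc1 and Mpc2, which form the mitochondrial pyruvate carrier, fell by 1.18 and 1.2, and Idh3b of the cycle by 0.83. Ogdh, the long cycle enzyme gene, was the riser (0.53). Etfb and Eci1 of fatty acid oxidation fell by 0.95 and 1.06. Cd36, a fatty acid transporter, measured 791 to 921 CPM (median 832) at 20 months, against 653, 642, 455 and 465 CPM at 6 months, and rose by 0.60 ± 0.15 (SE) with adjusted p = 0.0013, and by 0.50 (adjusted p = 0.015) with the offsets. Lpl, which frees fatty acids in capillaries, rose by 0.77, a call lost without 6-month replicate 3 or 4. In glycolysis Pgam2 (-0.86) and Tpi1 (-0.76) fell and Hk2, the muscle hexokinase, rose (0.68), and with the offsets none of these 3 passed.

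Translation factor and proteasome genes mostly fell. Among 32 translation factors 17 fell and 5 rose. Eef1b2, an elongation factor subunit, fell by 1.19 and Tpt1 by 1.26, whereas Eif3a, the scaffold of initiation factor 3, rose by 1.06 (adjusted p = 7.5e-06). With the offsets 13 factors fell and 0 rose. Of 35 proteasome genes 29 fell and 2 rose, with a median of -0.50. Psmb5, the subunit with chymotrypsin-like activity, had 78.1 to 85.3 CPM (median 81.4) at 20 months, against 120, 165, 182 and 151 CPM at 6 months, and Psmb6 and Psmb4 fell by 0.88 and 0.89. The 2 risers were Psmd1 (0.41), a call lost without 6-month replicate 3, and the proteasome activator gene Psme4 (0.34), lost without any one of 20-month replicates 1, 4 and 6 and 6-month replicates 1, 2 and 3 and at -0.52 with the offsets. With the offsets 6 proteasome genes fell, among them Psmb4 (-0.40, adjusted p = 0.0009), and Psmb5 and Psmb6 did not pass.

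Of 35 genes for giant ubiquitin ligases and chromatin coregulators, 34 rose and 0 fell, with a median of 1.03 and a median transcript length of 8820 bases. Kmt2e, a chromatin protein of the trithorax kind, measured 42.4 to 56.8 CPM (median 47.1) at 20 months, against 22, 19.6, 18.9 and 13.7 CPM at 6 months. The groups did not overlap, and the log2 fold change was 1.40 ± 0.16 (SE) with adjusted p = 8.3e-10. Mycbp2, an E3 ligase, rose by 1.60, the histone methyltransferase gene Ash1l by 1.62, the acetyltransferase gene Ep300 by 1.31 and Arid1a of the SWI/SNF remodelling complex by 1.21. With the offsets 9 members rose, 3 fell and the median was 0.14. Kmt2e (0.44), Mycbp2 (0.41), Ash1l (0.53) and Arid1a (0.37) were among the 9.

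A second motif was counted in the promoters of this list. GGGCGG, the GC box bound by Sp family factors, or its reverse complement, stood in 96.0% of 25 windows of the list. It stood in 59.7% of all windows and 54.5% of cytosolic ribosomal ones, while CCGGAAG stood in 8.0% of the list. The box was in 69.5% of windows of rising genes, 63.2% of falling genes and 55.3% of genes that did not pass. Among endothelial markers, which mostly rose, 41.7% of 12 windows held it. Chosen in the same way, with the same chromosome left out, the list member with the smallest p that held the GC box is Arid1a. It lies at chr4:133756720-133757019 on the minus strand and is shown with the box, here as CCGCCC, in capitals.
Arid1a: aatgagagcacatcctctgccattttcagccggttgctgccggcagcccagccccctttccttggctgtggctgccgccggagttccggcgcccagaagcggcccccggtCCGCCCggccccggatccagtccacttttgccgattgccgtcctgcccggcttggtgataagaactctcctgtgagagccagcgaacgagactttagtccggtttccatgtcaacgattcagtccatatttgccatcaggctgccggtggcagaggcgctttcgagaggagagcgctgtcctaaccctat
Its single match begins at position -140 from the annotated start.

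Most endothelial markers rose. Of 21 endothelial marker genes 15 rose and 1 fell, with a median of 0.99, and with the offsets 13 rose and 0 fell, with a median of 0.86, and 12 genes rose in both. Cdh5, the cadherin of endothelial junctions, averaged 101 ± 14.3 CPM (SD, n = 6), with a lowest value of 83.1 CPM, at 20 months, against 54.8, 14.2, 15.3 and 21.2 CPM at 6 months. Six-month replicate 1 was the highest of its group and still below every 20-month library. Its log2 fold change was 1.94 ± 0.27 (SE) with adjusted p = 3.6e-08, 1.75 without 6-month replicate 3 and 1.55 with the offsets. Ptprb, the endothelial phosphatase, rose by 2.12, the VEGF receptor gene Flt1 by 1.99 and Pecam1 by 1.41. Egfl7, a short secreted endothelial factor, was the one member that fell (-0.80), a call lost without 6-month replicate 3. The summed level of the 21 markers was 1297 to 1462 CPM at 20 months, against 1023, 563, 818 and 649 CPM at 6 months (exact permutation test, p = 0.0095, adjusted p = 0.05, and adjusted p = 0.12 without 6-month replicate 3), and no marker was at 0 in all 10 libraries. In bulk muscle, more vessel cells per fibre and more RNA per vessel cell cannot be told apart.

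Mural cells wrap vessels. Of 17 smooth muscle and pericyte markers 11 rose and 1 fell, and with the offsets 7 rose and 1 fell. Rgs5, a pericyte marker, measured 443 to 483 CPM (median 457) at 20 months, against 233, 109, 133 and 181 CPM at 6 months, a log2 fold change of 1.48 ± 0.20 (SE) with adjusted p = 1e-08 that was 1.44 with the offsets. Notch3, the receptor of mural cells, rose by 2.03 and Myh11, the smooth muscle myosin, by 1.86. The summed level went the other way, with 4362 to 4609 CPM at 20 months and 4714 to 6066 CPM at 6 months, and Des, which muscle fibres also make and which fell by 0.51, was 74.8% to 77.8% of the sum at 20 months and 86.9% to 93.2% at 6 months. The fall of Des did not pass without 6-month replicate 2 or 3. The markers other than Des summed to 1008 to 1134 CPM at 20 months and 390 to 615 CPM at 6 months.

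Of 35 fibroblast and collagen genes 17 rose and 0 fell, with 13 rising without 6-month replicate 3 and 7 rising and 2 falling with the offsets. Lamc1, a laminin chain of fibre and vessel basement membranes, had 92.3 to 121 CPM (median 93.9) at 20 months, against 50.3, 31.6, 36.1 and 32.6 CPM at 6 months, and rose by 1.41 ± 0.17 (SE) with adjusted p = 1.2e-09. Lamb1 rose by 1.58, Nid1 (nidogen) by 1.31, the perlecan gene Hspg2 by 1.26 and Col4a1 by 1.24. The fibrillar collagens of connective tissue were scattered. Col1a1 averaged 143 ± 38 CPM (SD, n = 6) at 20 months and 62.7 ± 45.7 CPM (SD, n = 4) at 6 months, with overlapping groups (edgeR log2 fold change 1.19, adjusted p = 0.19), and Col3a1 was at 0.25 (adjusted p = 0.70). Thbs4, a thrombospondin of tendon and muscle attachment, rose by 1.35 (1.19 with the offsets), and the tendon marker sum was 811 to 1053 CPM at 20 months against 310 to 757 CPM at 6 months, where replicate 1 was the highest. The share of attached tendon or vessel in each dissected muscle was not tested.

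**Figure D3:**
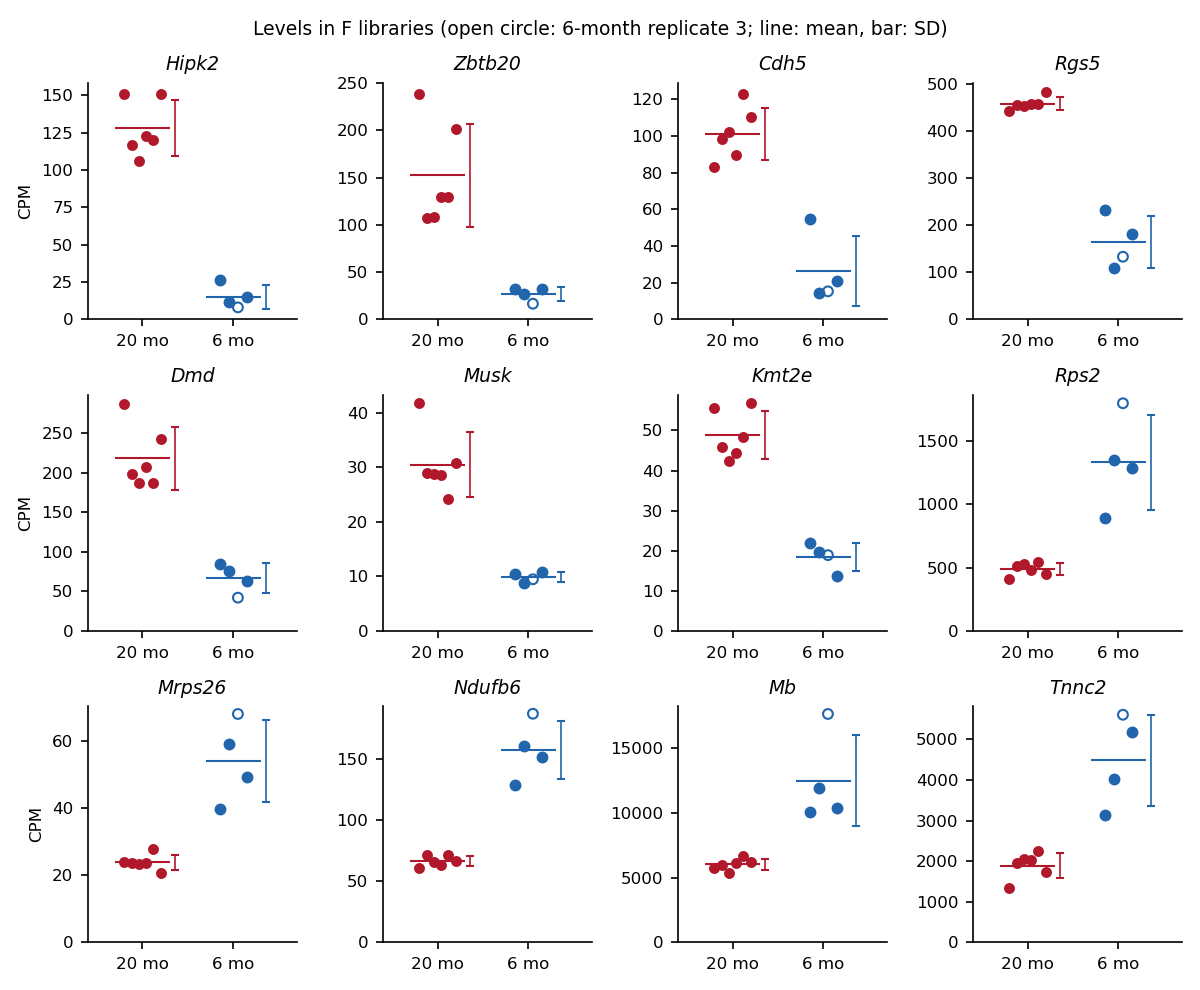
Level in CPM (y axes from 0) of 12 genes in each F library at 20 months (red, left) and 6 months (blue, right), with the mean as a line and the SD as a bar (n = 6 and n = 4), and 6-month replicate 3 as an open circle. In all 12 panels the groups do not overlap, for example 106 to 151 CPM against 8.06 to 26.4 CPM for Hipk2. The 12 genes were picked for display with their values known, so this count is not a result. Over all genes tested, the groups did not overlap in 34.9%.

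Of 25 angiogenic and hypoxia genes 14 rose and 5 fell. The transcription factor gene Epas1, which responds to low oxygen, was among the risers, at 222 to 256 CPM (median 240) at 20 months, against 126, 49.5, 48.0 and 74.3 CPM at 6 months (1.68, adjusted p = 3.3e-09). The ligand gene Vegfa had 138 to 210 CPM (median 174) at 20 months, against 210, 286, 275 and 306 CPM at 6 months, so that the groups met at 210 CPM. It fell by 0.64 on the log2 scale (adjusted p = 0.0026), and Vegfb fell by 0.90. With the offsets Epas1 was at 1.02 and still passed, and Vegfa (-0.06) and Vegfb (-0.18) did not.

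Of 22 genes of the dystrophin complex and membrane repair 12 rose and 2 fell (9 and 2 without 6-month replicate 3, 6 and 3 with the offsets). Dmd, which encodes dystrophin, measured 187 to 287 CPM (median 203) at 20 months, against 85.3, 75.8, 42.1 and 63.7 CPM at 6 months. The groups did not overlap, with a log2 fold change of 1.71 ± 0.24 (SE) with adjusted p = 3.1e-08 that was 1.16 with the offsets. Utrn, its close relative utrophin, rose by 1.77 and the sarcoglycan gene Sgcd by 1.89 (1.96 with the offsets, with a median transcript of 2034 bases). Cav3, the caveolin of muscle, fell by 1.12, and with the offsets by 0.47 (adjusted p = 0.035).

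At the nerve contact and among genes that respond to lost nerve input, 8 of 26 rose and 1 fell. Musk, the receptor kinase that gathers acetylcholine receptors, measured 24.2 to 41.7 CPM (median 28.9) at 20 months, against 10.5, 8.86, 9.47 and 10.8 CPM at 6 months, and rose by 1.62 ± 0.26 (SE) with adjusted p = 4.3e-07, 1.60 without 6-month replicate 3 and 1.32 with the offsets. Its co-receptor gene Lrp4 rose by 1.07, which did not pass with the offsets (0.20). Ncam1, an adhesion molecule that spreads over fibres without a nerve, had 20.5 to 29.5 CPM at 20 months, against 10.6, 6.78, 3.78 and 7.11 CPM at 6 months (1.74, and 1.61 with the offsets). Embryonic myosin Myh3 rose by 1.75. Rapsn, the clustering partner of the receptor, fell by 0.72, and the receptor subunit gene Chrna1 was at 0.25 (adjusted p = 0.49).

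The atrophy and FoxO list was mixed, with 9 of 27 rising and 3 falling. Foxo3, the transcription factor of the list's name, had 46.3 to 65.5 CPM (median 59.7) at 20 months, against 26.0, 23.5, 18.4 and 18.4 CPM at 6 months, a log2 fold change of 1.41 ± 0.24 (SE) with adjusted p = 2.3e-06. Sesn3, a FoxO target, rose by 1.67, and with the offsets these genes were at 1.53 and 1.81. The ubiquitin ligase gene Nedd4 rose by 0.95. Of the muscle ligases most tied to wasting, Fbxo32 (atrogin-1) rose by 0.88, a value of -0.02 with the offsets, and Trim63 (MuRF1) had 87.5 to 128 CPM at 20 months and 117, 134, 103 and 131 CPM at 6 months, which did not pass (-0.21, adjusted p = 0.58).

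Of 32 giant and structural sarcomere genes 15 rose and 4 fell. Neb, the nebulin gene, measured 3172 to 6021 CPM (median 3954) at 20 months, against 2130, 2199, 1404 and 2068 CPM at 6 months. The groups did not overlap, and it rose by 1.17 ± 0.25 (SE) with adjusted p = 8.3e-05. Myom2 rose by 1.13, and Tmod4, the small pointed-end cap, fell by 0.88. Without 6-month replicate 3 the counts were 7 and 2, and with the offsets 1 rose and 2 fell, Neb being at -0.03.

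Of 17 slow fibre genes 4 rose and 5 fell, and of 18 fast fibre genes 1 rose and 7 fell. Over all genes 18.2% rose and 17.8% fell, and the slow fibre counts were not far above those shares. With the offsets 0 slow fibre genes rose and 1 fell, against 7.05% and 11.9% over all genes. Mb, the oxygen store myoglobin, had 5338 to 6707 CPM (median 6063) at 20 months, against 10063, 11961, 17663 and 10386 CPM at 6 months, and fell by 1.05 (0.84 without 6-month replicate 3, adjusted p = 0.00087, and -0.29 with the offsets, adjusted p = 0.25). Slow Myl3 and Myoz2 fell by 0.73 and 0.84, and fast Tnnc2, Tnni2 and Myoz1 by 1.24, 1.09 and 1.25. Of these 6, Myoz2 (-0.40), Tnnc2 (-0.49) and Myoz1 (-0.75) passed with the offsets. Atp2a2, the slow calcium pump, rose by 1.04, and Pvalb, the calcium buffer of fast fibres, ran from 10.2 to 495 CPM at 20 months and from 132 to 1576 CPM at 6 months without a call (-1.86, adjusted p = 0.14).

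The adult myosin heavy chains have transcripts of nearly equal length, so they can be compared with each other per length. Myh7, the slow chain, was 55.8% to 70.3% of the 4 adult chains at 20 months and 40% to 66% at 6 months (exact permutation test, p = 0.15), and Myh2, the fast oxidative chain, 19.6% to 37.4% in both groups (p = 0.56, exact permutation test). Myh1 was 5.49% to 8.01% at 20 months and 6.07% to 18.7% at 6 months, and Myh4, the fastest chain, reached 11.6% in 20-month replicate 4 and 31.8% in 6-month replicate 4. As single genes Myh7 (0.83, adjusted p = 0.038) and Myh2 (0.80, adjusted p = 0.0095) rose. The Myh2 call was lost without 6-month replicate 3, and the Myh7 call without any one of 20-month replicates 1, 3 and 4 and 6-month replicates 3 and 4. Myh1 (-0.14) and Myh4 (-1.12) did not pass, and reads shared between these similar genes are divided by the counting model.

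Of 30 genes of insulin, IGF and growth hormone signalling 15 rose and 5 fell. Insr, the insulin receptor, had 119 to 164 CPM (median 131) at 20 months, against 69.2, 66.9, 37.2 and 56.2 CPM at 6 months (1.27, adjusted p = 1.2e-06), and Igf2r, which clears IGF2, rose by 1.53. Downstream, Irs2 rose by 1.66 and Pik3r1, the regulatory subunit of PI3 kinase, by 1.46. Socs2, a growth hormone target and brake, fell by 0.98, and by 0.98 with the offsets, a call lost without 6-month replicate 4. With the offsets 4 rose and 4 fell, Igf2r (0.52) and Pik3r1 (0.81) passing and Insr (0.22) not.

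Of 26 genes listed as regulators of mitochondrial biogenesis, only some of which are known to drive respiratory chain genes, 15 rose and 3 fell. With the offsets the counts were 6 and 4. Ppargc1a, the coactivator PGC-1alpha, had 35 to 66 CPM (median 46.3) at 20 months, against 19.3, 16.7, 17.9 and 19.1 CPM at 6 months, a log2 fold change of 1.38 ± 0.39 (SE) with adjusted p = 0.0033, and 0.77 (adjusted p = 0.18) with the offsets. Ppara, a nuclear receptor of fat oxidation, rose by 1.89, and by 1.83 with the offsets. Esrra, another nuclear receptor of the list, and the mitochondrial deacetylase gene Sirt3 fell by 0.82 and 0.87. Both passed with the offsets (-0.56 and -0.43).

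Glucocorticoid targets rose in 9 of 20 genes and fell in 1, with 6 and 0 under the offsets. Zbtb16, a strongly steroid-induced gene, had 57 to 143 CPM (median 79.4) at 20 months, against 45.2, 20.1, 14.5 and 26.8 CPM at 6 months (1.77, and 1.5 with the offsets), and Klf9 rose by 0.82, which did not pass with the offsets (0.21). Of 22 clock genes 9 rose and 2 fell, with 2 and 2 under the offsets. Hlf, a clock output factor, rose by 1.61. Arntl, the core activator BMAL1, had 3.50 to 13.5 CPM at 20 months and 37.9, 13.9, 5.93 and 29.4 CPM at 6 months, so the groups overlapped. Its fall of 1.54 was lost without any one of 20-month replicates 1 and 3 and 6-month replicates 1 and 4. The hour at which tissue was taken is not given in the sources used here.

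Without 6-month replicate 3, 13.8% of all genes rose and 14.2% fell, and the counts of the lists above were as follows. The rises and falls were then 1 and 9 for the citric acid cycle, 1 and 8 for fatty acid use, 3 and 10 for glycolysis, 3 and 16 for translation factors and 0 and 26 for the proteasome. They were 33 and 0 for the giant regulators, 13 and 0 for endothelial markers, 9 and 0 for smooth muscle and pericyte markers and 11 and 4 for angiogenic genes. For nerve contact genes they were 8 and 1, for atrophy and FoxO genes 8 and 3, for slow fibre genes 1 and 6 and for fast fibre genes 0 and 7. For insulin signalling they were 14 and 4, for mitochondrial biogenesis 12 and 3, for glucocorticoid targets 8 and 0 and for the clock 9 and 2. Rises were fewer by over 1.5 times for translation factors (3 against 5 with all libraries), the proteasome (0 against 2), slow fibre genes (1 against 4), fatty acid use (1 against 3) and the giant sarcomere genes (7 against 15).

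With the offsets and all libraries, 7.05% of all genes rose and 11.9% fell. In that fit 1 gene of the citric acid cycle rose and 7 fell. The riser was not Ogdh, and 6 of the falls were also called without the offsets. Of fatty acid use 1 rose and 4 fell, and of glycolysis 1 rose and 4 fell. Among nerve contact genes 3 rose and 1 fell, and among atrophy and FoxO genes 5 rose and 2 fell. Slow fibre genes had 0 rises and 1 fall, fast fibre genes 0 rises and 3 falls, and angiogenic genes 9 rises and 2 falls.

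Markers of blood, immune, skin and nerve sheath cells had few calls. Of 20 macrophage markers 3 rose and 0 fell, with 3 and 0 without 6-month replicate 3 and 2 and 0 with the offsets. These rises were not above the 18.2% over all genes and are not read as a result about macrophages. Mertk (1.54) and Lyve1 (1.21) were among them, while Fcgr1 was lowest at -0.85 without a call, and the list median was 0.15. The macrophage sum was 139 to 191 CPM at 20 months and 58.8 to 262 CPM at 6 months. Of 19 lymphocyte markers 0 rose and 3 fell (0 and 3 without that library, 0 and 0 with the offsets), at summed levels of 4.54 to 13.5 CPM at 20 months and 6.68 to 29.3 CPM at 6 months. Neutrophil, erythroid, keratinocyte and Schwann cell lists had 0 calls either way in all 3 fits, and the keratinocyte sum was at most 6.86 CPM in every library but 6-month replicate 4, which had 85.9 CPM. Among 43 interferon and antigen presentation genes 5 rose and 3 fell, with 6 and 2 without 6-month replicate 3. With the offsets 5 rose and 0 fell, and 1 gene rose both with and without them. The senescence marker Cdkn2a was near the detection limit, at 0.0531 to 0.27 CPM at 20 months and 0.11 to 0.278 CPM at 6 months. The cell cycle inhibitor gene Cdkn1a had 20 to 30 CPM at 20 months and 18 to 52.6 CPM at 6 months (-0.56, adjusted p = 0.35). Gdf15, a stress hormone, had 0.346 to 1.04 CPM at 20 months and 0.329 to 0.834 CPM at 6 months (-0.01), and none of these 3 genes passed.

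**Figure D4:**
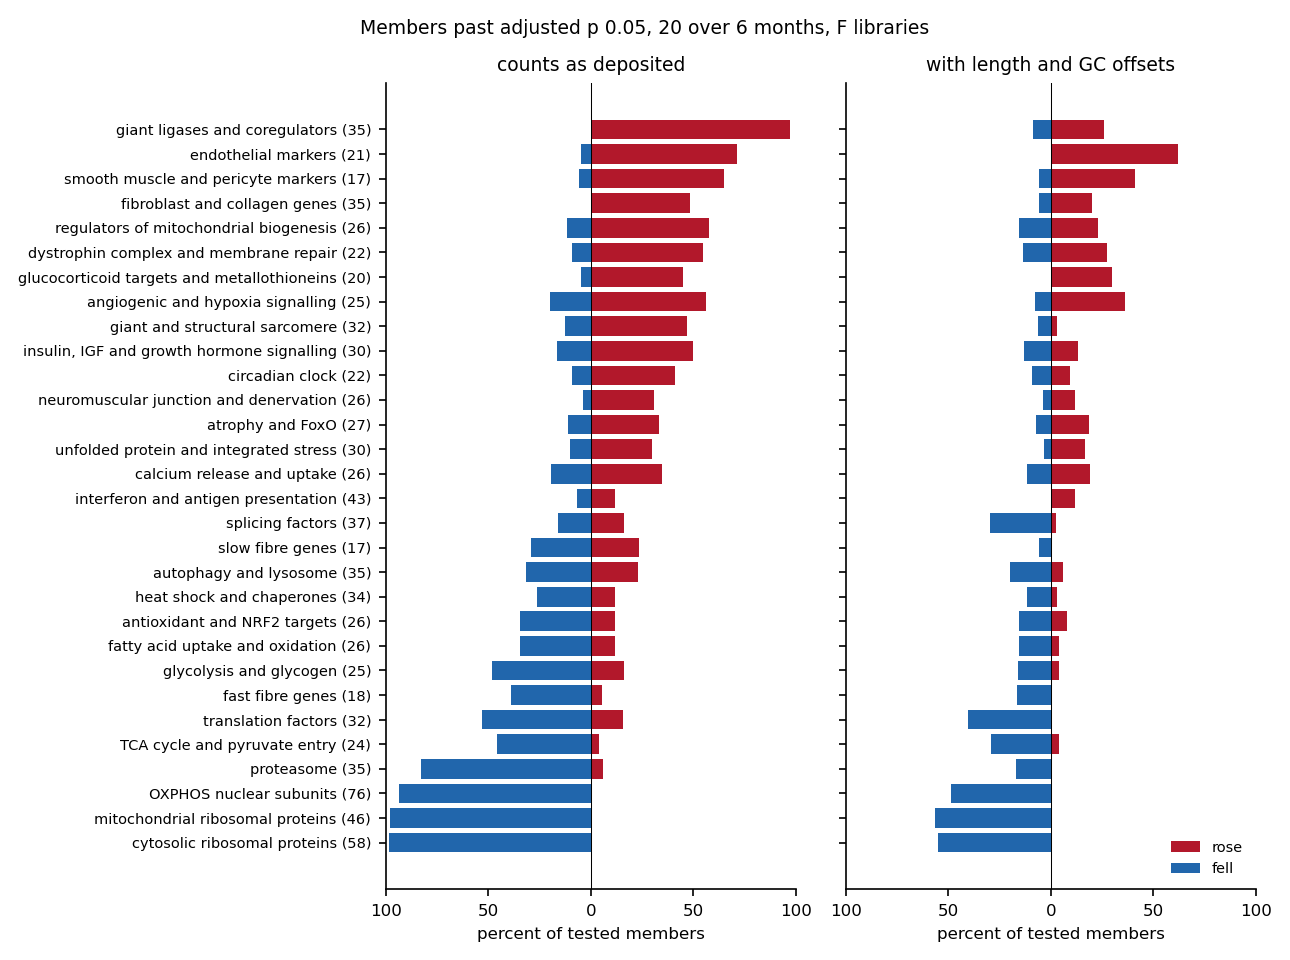
Share of tested members of each list (number in brackets) that rose (red, right) or fell (blue, left) at adjusted p under 0.05 at 20 over 6 months in F libraries, with counts as deposited (left panel) and with length and GC offsets (right panel). Lists with at least 8 calls are drawn. Endothelial markers have 15 rises as deposited and 13 with offsets, and the giant ligases and coregulators have 34 rises and 0 falls as deposited and 9 rises and 3 falls with offsets.

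The 12 largest changes each way were taken among genes that did not overlap between groups and reached a set level. These genes also had to pass both with all libraries and without 6-month replicate 3. Hipk2, a kinase that acts on p53 and other nuclear factors, measured 106 to 151 CPM (median 121) at 20 months, against 26.4, 11.4, 8.06 and 15.0 CPM at 6 months. Its log2 fold change was 3.08 ± 0.38 (SE) with adjusted p = 2.3e-09, 2.86 without 6-month replicate 3 and 2.75 with the offsets. Zbtb20, a zinc finger repressor, had 107 to 239 CPM (median 130) at 20 months, against 32.4, 26.8, 16.6 and 31.7 CPM at 6 months, a rise of 2.51 ± 0.28 (SE) with adjusted p = 3.3e-10 and of 2.39 with the offsets. The other rises were those of Papln (2.87), Pcdhgb6 (2.52), Zfp366 (2.47), the retinoic acid hydroxylase gene Cyp26b1 (2.26), the AMP nucleotidase gene Nt5c1a (2.24), the amine oxidase gene Aoc3 (2.24), the copper pump gene Atp7a (2.18), the lymphatic factor gene Ccbe1 (2.17), the transporter gene Slc6a17 (2.17) and the VEGF and semaphorin co-receptor gene Nrp2 (2.17). All 12 passed with the offsets, at 1.35 to 2.77. Without 6-month replicate 3, where the choice itself required a pass, they were at 1.96 to 2.86.

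Among the 12 largest falls, Pcdhgc4, a protocadherin of the gamma cluster, was at 0 to 0.59 CPM (median 0.135) in the 20-month libraries, against 3.06, 12.6, 17.4 and 12.6 CPM in the 6-month libraries, a log2 fold change of -5.64 ± 1.04 (SE) with adjusted p = 8.5e-06 that was -5.95 with the offsets. Six-month replicate 1 was the lowest of its group and still above every 20-month library. Pcdhgb6, which rose, belongs to the same cluster, whose genes share their last exons, so the model's division of reads between them makes both values uncertain. Tmem134 had 25.5 to 35.4 CPM (median 31.9) at 20 months, against 58.8, 93.7, 157 and 78.1 CPM at 6 months, and fell by 1.62, and by 2.05 with the offsets. The others were mt-Nd3, mt-Rnr1, Mrps24 and Rps14, given above, with C1qtnf4 (-1.89), AC122252.2 (-1.72), the mitochondrial leucyl-tRNA synthetase gene Lars2 (-1.62), Iqcg (-1.58), the iron-sulphur ferredoxin gene Fdx1l (-1.57) and Mcrip2 (-1.56). With the offsets all 12 passed, at -5.95 to -0.60.

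Libraries of 12-month F mice, which came from the same supplier as the 6-month mice, were set beside them. At 12 over 6 months 7 of the 18218 genes rose (0.0384%) and 35 fell (0.192%), and at 20 over 12 months 4612 rose (25.3%) and 4461 fell (24.5%). These comparisons share libraries with the main one, and 2 of the 12-month libraries go against their F label. Hipk2 ran between 3.32 and 24.5 CPM, Cdh5 between 13.1 and 36.6 CPM and Rps2 between 1058 and 2974 CPM in the 12-month libraries. None of these 3 ranges overlaps the 20-month libraries, but these genes were named for their change between 20 and 6 months. The share of all genes without overlap between 12 and 20 months was not counted. Length and log2 fold change had a rho of -0.28 at 12 over 6 months and 0.57 at 20 over 12 months. At an unadjusted p under 0.05 (edgeR), 2647 genes differed at 12 over 6 months and 9974 at 20 over 12 months. The 12-month F libraries were uneven, with 16% to 46.5% mitochondrial counts and keratinocyte sums of 3.77 to 3275 CPM. Per the labels, the supplier changed at the later step and not at the earlier one, while age changed at both. What made the 2 steps differ was not tested.

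Male libraries gave a comparison with no library in common, 9 at 20 months and 6 at 6 months, across the same change of supplier, with 1 of the 6-month M libraries going against its label. There 4118 genes rose (22.6%) and 4010 fell (22%). Of the rises, 2827 were called in both sexes, which is 85.4% of those in F and 68.6% of those in M, and of the falls 2876, 88.5% and 71.7%. One gene was called in opposite directions. Across genes the log2 fold changes had Pearson's r 0.51 and Spearman's rho 0.70, a description over genes, which are not replicates. The length trend was there too, with rho 0.52. Hipk2 rose by 2.28, Cdh5 by 2.42, Dmd by 1.5 and Musk by 1.08 in M, and Rps2 and Ndufb6 fell by 1.43 and 1.2.

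The difference between the sexes was tested itself. No gene passed at an adjusted p under 0.05 in edgeR (0.0% of 18218), with 844 at an unadjusted p under 0.05, while DESeq2 called 21 and limma-voom 13. Apart from Xist and the Y-linked genes Kdm5d, Ddx3y, Uty and Eif2s3y, the gene with the smallest p was Uck2, a uridine kinase. It had 24.2 to 33.6 CPM at 20 months and 25.3, 22.6, 27.5 and 23.7 CPM at 6 months in F (0.20), and fell by 1.31 in M, a difference of 1.51 with an adjusted p of 0.081. The 4 Y-linked genes were called as falling in F, and without 6-month replicate 3 they were at 0 in both groups. Xist was at 1.74 (adjusted p = 0.31), and 1.32 without that library.

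**Figure D5:**
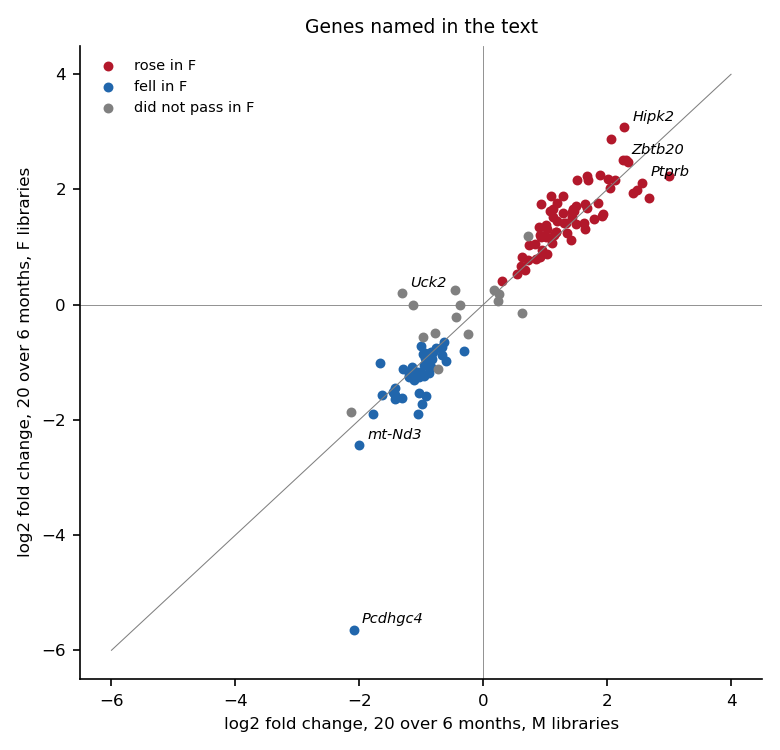
Log2 fold change at 20 over 6 months in F libraries (y axis) against that in M libraries (x axis) for the genes named here other than the sex-linked ones, with the line of equal change. Genes that rose in F (red) and fell in F (blue) lie on the same side of 0 in M, and Uck2, at 0.20 in F and -1.31 in M, lies apart.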

How the data were processed

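Soleus RNA was sequenced from 78 labelled libraries. The authors deposited expected counts per gene, made with STAR 2.7.11b and RSEM 1.3.3 on mm10 after FastQC, per the submitters' processing notes; the sources used here give neither annotation release nor strand setting. Of the values, 8.99% were not whole (tolerance 1e-06) and were rounded. Another 55 columns match no label and were not used. Of 36904 IDs, 35338 matched a GENCODE M21 symbol, and IDs without one held 0.881% of counts.

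Genes with enough counts (filterByExpr, minimum count 10, total 15) were fitted in edgeR 4.0.16 (R 4.3.3) with TMM scaling over 11 groups, which share one estimate of spread, and 77 replicates, after the 2 libraries of 1 animal were summed. The quasi-likelihood test was Benjamini-Hochberg adjusted over all 18218 genes, and log2 fold changes are 20 over 6 months. CPM values are TMM-scaled. Each library has its own animal tag and litters are not stated, so p-values measure the spread between these libraries. Transcript length and GC came from GENCODE M21 for 97.5% of tested genes, and the offsets are splines (5 degrees of freedom) fitted in each library. Library properties were compared with exact two-sided permutation tests. Alternatives were DESeq2 1.42.0, limma-voom (limma 3.58.1), other scaling, filters, covariates and left-out libraries.

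Members, lists and tests were chosen with earlier results of these data known. Named genes included the 12 largest changes each way. These passed with all libraries and without 6-month replicate 3, did not overlap and reached 5 CPM in the higher group. Up to 4 members a list by p, the 6 smallest p for the F and M difference, and set genes were also named. Others named were chosen after their values were seen. On data simulated for this comparison over 17164 genes, 22.7% of 1.5-fold, 49.2% of 2-fold and 69.8% of 4-fold changes were recovered, with 5.32% of 94 calls false. Only a small set of genes was changed there, all others were equal between groups, and no length trend was put in. Changed genes lost to the filter were not counted. These shares therefore do not carry over to the calls in the real data. Intervals of depth are given as ranges, and counting error is not separated from replicate spread. No 2 libraries of a group agreed within sampling noise.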

Additional observations from a re-analysis of the deposited data

Results flagged for a closer look

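Of 314 sets of values examined within the 20-month and 6-month F libraries, 27 had a library apart from the rest of its group by Dixon's test. Chance alone flags about 1 in 20 such sets. All values are CPM unless a percentage is given.

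In the 20-month libraries, replicate 1 was the highest for Gdf15 (1.04), the lymphocyte marker sum (13.5), the Schwann cell marker sum (264) and the Myh7 share of adult myosin (70.3%). Replicate 4 was the highest for Myh4 (3068) and its share (11.6%). Replicate 5 was the highest for Lars2 (610) and the neutrophil marker sum (3.65), and replicate 6 for Hspg2 (200).

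In the 6-month libraries, replicate 3 held the values that go against its label, with Xist at 0, Ddx3y at 51.6, Kdm5d at 11.7, Uty at 12.7 and Eif2s3y at 58.6. It was also the highest for mt-Nd3 (1261) and the lowest for Psmd1 (81.1), Hk2 (197) and Neb (1404). Replicate 1 was the highest for Atp7a (2.93), Flt1 (35.4), Thbs4 (165) and the tendon marker sum (757). Replicate 4 was the highest for Myh4 (6152), its share of adult myosin (31.8%), Pvalb (1576), Socs2 (28.1) and the keratinocyte marker sum (85.9).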

How the results depend on the processing

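Of 120 named genes past the test, 108 kept their call and direction in every alternative other than the offsets, and 85 did with the offsets. Many of these genes were named for large changes or small p, so these counts do not describe all calls. Of all 3311 rises and 3251 falls, 1053 and 1518 were also called with the offsets. Without 6-month replicate 3, 2520 and 2615 of them were called. Leaving out 1 library gave 2589 to 3282 rises and 2659 to 3427 falls, the lowest of both without 6-month replicate 3. The offsets gave 1285 rises, and without that library 835 rises and 1511 falls, while fitting the 2 groups alone without it gave 3893 rises. The difference between F and M gave 0 to 4 genes with 1 library left out, 21 in DESeq2 and 13 in limma-voom. Of the marker sums, 5 had an unadjusted exact permutation p under 0.05, 5 with library totals (where the smooth muscle and skeletal fibre sums had p = 0.17 and 0.85) and 4 without 6-month replicate 3, where the smallest adjusted p was 0.12.

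Replicate numbers did not pair the ages (correlations of 0.09, 0.12, 0.18 and 0.35), and replicates 1 and 2 correlated better with another number. With the replicate block on the numbers both ages share, 3777 genes rose and 3395 fell, against 3671 and 3510 without it, and the block for the F and M difference gave 0.

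These named values changed sign, none past the test on both sides. With the offsets Mrps2 was 0.03, Sdha -0.13, Neb -0.03, Myl3 0.11, Chrna1 -0.32, Fbxo32 -0.02, Col3a1 -0.42, Cdkn2a 0.27, Gdf15 0.52 and Uck2 -0.36. Without the mitochondrial genome Mrps2 was 0.02 and Gdf15 0.01. Myh1 was 0.10 in limma-voom. With the block Myh4 was 1.89 and Gdf15 0.17, and in the matched fit without it Gdf15 was 0.16 and Col3a1 -0.03. With 1 library left out Mrps2 ran from -0.03 to 0.04, Myh1 from -0.35 to 0.14, Myh4 from -2.42 to 1.91 and Gdf15 from -0.26 to 0.20. The cause was not tested.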

Other observations

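Stress and turnover lists not described above were mixed at 20 over 6 months. Over all genes 18.2% rose and 17.8% fell, with 7.05% and 11.9% under the offsets and 13.8% and 14.2% without 6-month replicate 3. Of 34 heat shock and chaperone genes 4 rose and 9 fell, of 30 genes of the unfolded protein and integrated stress responses 9 rose and 3 fell, and of 35 autophagy and lysosome genes 8 rose and 11 fell. Of 26 antioxidant and NRF2 genes 3 rose and 9 fell, and of 20 p53 and senescence genes 3 rose and 3 fell. With the offsets these counts were 1 and 4, 5 and 1, 2 and 7, 2 and 4, and 1 and 3, and without 6-month replicate 3 they were 1 and 10, 7 and 2, 5 and 9, 2 and 8, and 3 and 3.

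Of 26 calcium release and uptake genes 9 rose and 5 fell, of 37 splicing factors 6 rose and 6 fell, and of 12 long noncoding RNAs 2 rose and 1 fell. With the offsets these counts were 5 and 3, 1 and 11, and 0 and 1, and without 6-month replicate 3 they were 5 and 5, 3 and 4, and 2 and 1. For splicing factors, 0 rises and 1 fall were called both with and without the offsets. Of 25 immediate early genes 4 rose and 0 fell, of 23 complement and chemokine genes 7 rose and 0 fell, and of 19 matrix proteases and inhibitors 6 rose and 0 fell. With the offsets 2, 2 and 4 of these rose, and without 6-month replicate 3, 2, 7 and 5 did, with 0 falls in each. Of 18 adipocyte markers 3 rose and 0 fell, of 20 satellite cell and Notch genes 7 rose and 0 fell, and of 11 estrogen and steroid receptor and target genes 5 rose and 1 fell. With the offsets these counts were 1 and 0, 2 and 1, and 0 and 0, and without 6-month replicate 3 they were 4 and 0, 5 and 0, and 4 and 1. Of 16 tendon markers 5 rose and 1 fell, and of 25 replication and mitosis genes 2 rose and 2 fell. With the offsets these counts were 3 and 0, and 0 and 1, and without 6-month replicate 3 they were 3 and 1, and 0 and 2. With all libraries and no offsets, the splicing factor counts lay near the shares over all genes. So did the rises of immediate early genes and of adipocyte markers, and none of these is read as a result about its list.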
